A study of Mus musculus with 24 samples.

Results

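The set described here holds 10 genes of blood vessel growth: the ligands Vegfa, Vegfb and Vegfc, the receptors Kdr and Flt1, the angiopoietins Angpt1 and Angpt2, the angiopoietin-like Angptl2, and the thrombospondins Thbs1 and Thbs2. They were chosen by name, with earlier results of these data known. They are 10 of the 49452 genes of the expression table, each with 1 row. Counts of changed genes set beside the share of all genes are therefore descriptions and not tests of the set. RNA was sequenced from primary stromal-vascular fraction cells, the adipocyte precursors and other non-adipocytes of fat tissue, taken from C57BL/6 mice. The cells came from interscapular brown adipose tissue (BAT) or from epididymal fat, here called vWAT for visceral white adipose tissue, and received a non-targeting siRNA (siCtrl) or an siRNA against the long non-coding RNA H19 (siH19). Each was sampled at d0 or at d3 of adipocyte differentiation, which gave 8 groups of 3 libraries, 24 libraries in all. Per the study's methods the mice were male and 6 to 8 weeks old, and BAT was pooled between animals where cells were few. All cells were grown in serum-rich medium and transfected by nucleofection before d0. Induction used insulin, dexamethasone, rosiglitazone and IBMX, with indomethacin and triiodothyronine named for BAT, and after 48 h rosiglitazone was given to vWAT cells and triiodothyronine to BAT cells. Depot and medium therefore cannot be told apart at d3, and depot also coincides with the series of sample codes. The labels do not say which libraries came from separate cultures or animals, so p-values measure the spread between these libraries, which may be technical.

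VEGF-A drives endothelial growth through the receptor encoded by Kdr (VEGFR2), while the Flt1 product (VEGFR1) binds VEGF-A, VEGF-B and placental growth factor and can act as a trap for them. VEGF-C is best known for growth of lymphatic vessels. Angiopoietin 1 activates the endothelial receptor Tie2 and steadies vessels, angiopoietin 2 can block that signal, and ANGPTL2 is a glycoprotein secreted by fat that has been linked to inflammation. Thrombospondins 1 and 2 are matrix proteins that restrain vessel growth through CD36 and CD47, and thrombospondin 1 also activates latent TGF-beta. In fat, precursors and adipocytes are major sources of the ligands, and the receptors belong mainly to endothelial cells.

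The knockdown was checked on H19 itself, in FPKM, fragment counts scaled to gene length and library size. At d3 H19 lay at 12 to 16.9 FPKM in siH19 BAT cells against 83.2 to 99.7 in siCtrl BAT cells, and at d0 at 2.82 to 5.2 against 108 to 160. In vWAT it lay at 0.291 to 0.966 against 8.19 to 8.9 at d3, and at 0.63 to 1.76 against 11.3 to 12.3 at d0. The groups did not overlap in any of the 4 pairs. The adipocyte markers, 9 genes, summed to 3400 to 3690 FPKM in siCtrl BAT cells at d0 and to 38400 to 40100 at d3, and the brown adipocyte markers, 7 genes, to 8.92 to 10.9 and 552 to 619. Of 15 endothelial markers, 3 to 9 reached a mean of 1 FPKM in a group, with Pecam1 at a mean of 1.35 to 4.6 and Cdh5 at 0.619 to 2.49, and Egfl7, which other cells also make, at 16.6 to 35.3.

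The genes lie on GRCm38, per the table, at chr17:46016993-46032369 (Vegfa, minus strand), chr19:6982473-6987651 (Vegfb, minus), chr8:54077606-54187096 (Vegfc, plus), chr5:75932827-75978458 (Kdr, minus), chr5:147561604-147726011 (Flt1, minus), chr15:42424727-42676977 (Angpt1, minus), chr8:18690263-18741562 (Angpt2, minus), chr2:33216069-33247717 (Angptl2, plus), chr2:118111876-118127133 (Thbs1, plus) and chr17:14665500-14694262 (Thbs2, minus). In the GENCODE annotation of the same build 4 of them are overlapped by a gene on the opposite strand: Angpt1 by Gm17473, Angpt2 by Mcph1, Angptl2 by Ralgps1 and Thbs1 by the long non-coding RNA Gm29233. Strand use in the counting is not given in the sources used here, so fragments of such a pair cannot be told apart with certainty. Gm29233 moved with Thbs1 from group to group. It had a median of 1380 FPKM in siCtrl BAT cells at d0, 32 at d3 and 81 with siH19 at d3. Ralgps1 reached at most 1.55 FPKM in any library. Mcph1 had a median of 3.59 FPKM in siCtrl BAT cells at d0 and 9.01 at d3, where Angpt2 had means of 6.12 and 1.52. In siCtrl vWAT cells the Mcph1 medians were 3.74 and 4.4, and its part in the Angpt2 values was not tested.

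The reagent is shown because every siH19 comparison rests on it. Library titles call it siH19_3, and the study's oligonucleotide list holds the entries siH19, siH19#2 and siH19#3, which the labels do not tie to the title. The guide strands of the base name and of the entry with the same number are printed 5′ to 3′ with bases 2 to 8, the seed, in capitals.
siH19: uCUUGAUUcagaacgagacgg
siH19#3: uGGUGUUCaagaaggcuggat
The target of siH19 lies within 1 exon of H19 at chr7:142576255-142576273, and that of siH19#3 spans a splice junction, chr7:142576613-142576624 and chr7:142576524-142576530. Each target is in 5 of the 7 annotated H19 transcripts.

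Promoters are printed for the genes called with siH19 in BAT cells at d3 that the RefSeq table (GRCm38.p6) holds, and for Flt1. The level of Flt1 changed with both day and depot, but so did those of Vegfa, Vegfc and Kdr, whose windows are not printed. The windows run from 250 bases before to 50 after the start, and 7 of the 10 genes matched. Capitals mark letters found on either strand: those of the GC box, GGGCGG, of the cAMP response element, TGACGTCA, and of the TATA box, TATAAA.
Vegfb, chr19:6987602-6987901, minus strand: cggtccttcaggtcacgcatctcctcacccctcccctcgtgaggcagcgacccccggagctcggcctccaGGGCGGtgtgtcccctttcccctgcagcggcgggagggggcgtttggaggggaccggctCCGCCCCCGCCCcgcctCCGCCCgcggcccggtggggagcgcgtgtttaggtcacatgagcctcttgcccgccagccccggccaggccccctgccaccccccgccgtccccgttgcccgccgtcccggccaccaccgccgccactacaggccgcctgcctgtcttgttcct
Angptl2, chr2:33215711-33216010, plus strand: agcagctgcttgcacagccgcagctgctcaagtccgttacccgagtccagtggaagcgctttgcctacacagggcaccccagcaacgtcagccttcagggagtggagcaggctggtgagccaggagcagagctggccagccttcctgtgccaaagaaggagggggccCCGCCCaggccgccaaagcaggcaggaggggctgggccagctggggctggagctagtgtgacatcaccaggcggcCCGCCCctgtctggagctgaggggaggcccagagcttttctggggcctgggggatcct
Thbs2, chr17:14694213-14694512, minus strand: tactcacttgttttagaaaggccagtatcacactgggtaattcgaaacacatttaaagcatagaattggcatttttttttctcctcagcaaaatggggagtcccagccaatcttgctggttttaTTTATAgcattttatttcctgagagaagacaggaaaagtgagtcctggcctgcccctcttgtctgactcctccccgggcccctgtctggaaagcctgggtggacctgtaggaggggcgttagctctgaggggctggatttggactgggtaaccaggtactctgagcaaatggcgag
Flt1, chr5:147725962-147726261, minus strand: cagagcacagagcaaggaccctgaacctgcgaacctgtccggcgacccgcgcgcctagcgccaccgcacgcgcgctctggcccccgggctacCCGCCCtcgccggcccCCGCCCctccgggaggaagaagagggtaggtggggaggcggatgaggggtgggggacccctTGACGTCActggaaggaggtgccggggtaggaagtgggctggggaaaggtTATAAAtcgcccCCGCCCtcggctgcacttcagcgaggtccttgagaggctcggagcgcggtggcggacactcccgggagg
The GC box letters stood in 4 places for Vegfb, 3 for Flt1 and 2 for Angptl2 but not in the Thbs2 window, whose GC content was 48.3% against 75.3% for Vegfb. Of all 32851 windows of this length, 35.7% hold GGGCGG, 1.79% TGACGTCA and 13.6% TATAAA. The Thbs2 match to TATAAA lies on the opposite strand. The letters ACGTG, core of the hypoxia response element, and CATTCC, read by TEAD factors, were searched too and occur in 19.6% and 14.7% of all windows but in none of these 4. Of the windows of the set not printed, that of the second Vegfa start holds ACGTG, with its first base at -211 from the start. CATTCC is in no window of the set. These matches describe letters and not binding.

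With H19 knocked down, BAT cells at d3 had more thrombospondin mRNA. Thbs1 stood at 148, 166 and 115 FPKM in the siH19 libraries and at 59.1, 43 and 57.4 in the siCtrl libraries. The lowest siH19 library was thus well above the highest siCtrl library, and the mean was 2.69-fold higher (log2 fold change 1.41 ± 0.17 SE on the log2(FPKM + 1) scale, n = 3 per group, adjusted p = 0.0043 by limma with Benjamini-Hochberg adjustment over 12500 genes). Thbs2 stood at 64.2, 60 and 49.2 FPKM with siH19 and at 29.6, 24.2 and 25.6 with siCtrl. It was 2.18-fold higher (log2 1.09 ± 0.12 SE, adjusted p = 0.0033 by limma), again with no overlap between the groups. Gm29233, on the strand opposite Thbs1, was at 63.6 to 97.9 against 28 to 39 FPKM in the same libraries, and its part in the Thbs1 value was not tested. Angptl2 rose as well, from 36, 32 and 34.9 FPKM to 47.2, 46.5 and 45.9, which is 1.36-fold (log2 0.43 ± 0.056 SE, adjusted p = 0.0055 by limma). Vegfb went the other way. It fell from 47.1, 51.9 and 46.9 FPKM in siCtrl cells to 37.1, 34.8 and 37.8 in siH19 cells (log2 -0.40 ± 0.061 SE, adjusted p = 0.0082 by limma), a 1.33-fold difference that lay just past the 1.3-fold minimum and dropped under it without siCtrl replicate 2 (log2 -0.35) or siH19 replicate 2 (log2 -0.37).

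Vegfa, the most abundant of the 3 VEGF ligands of the set, was at 71.4, 77.3 and 81.7 FPKM with siH19 and at 87, 97 and 110 with siCtrl. The groups did not overlap, but the difference missed the threshold (log2 -0.34 ± 0.094 SE, adjusted p = 0.053 by limma). It passed, as lower, after trimmed-mean scaling (log2 -0.40, adjusted p = 0.033) and without siCtrl replicate 1 (log2 -0.43, adjusted p = 0.033). Vegfc, Angpt1 and Angpt2 overlapped between the groups, with log2 differences of 0.20 (95% interval -0.05 to 0.46), 0.01 (-0.22 to 0.25) and -0.18 (-0.60 to 0.23). Kdr and Flt1 were under 1 FPKM in all 6 libraries and were not tested. Kdr was at 0.342, 0.29 and 0.341 FPKM with siH19 and at 0.229, 0.247 and 0.229 with siCtrl, and Flt1 at 0.595, 0.489 and 0.525 against 0.421, 0.368 and 0.456, so that the siH19 libraries lay higher for both receptors at these low levels. Of the 8 genes that passed the filter, an FPKM of at least 1 in 3 of the libraries compared, 3 were called higher and 1 lower. Called means an adjusted p under 0.05 and at least 1.3-fold on the log2(FPKM + 1) scale. Over all 12500 genes tested, 6.39% were called higher and 2.18% lower, and of the called genes 74.6% were higher, or 60.2% after trimmed-mean scaling.

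**Figure D1:**
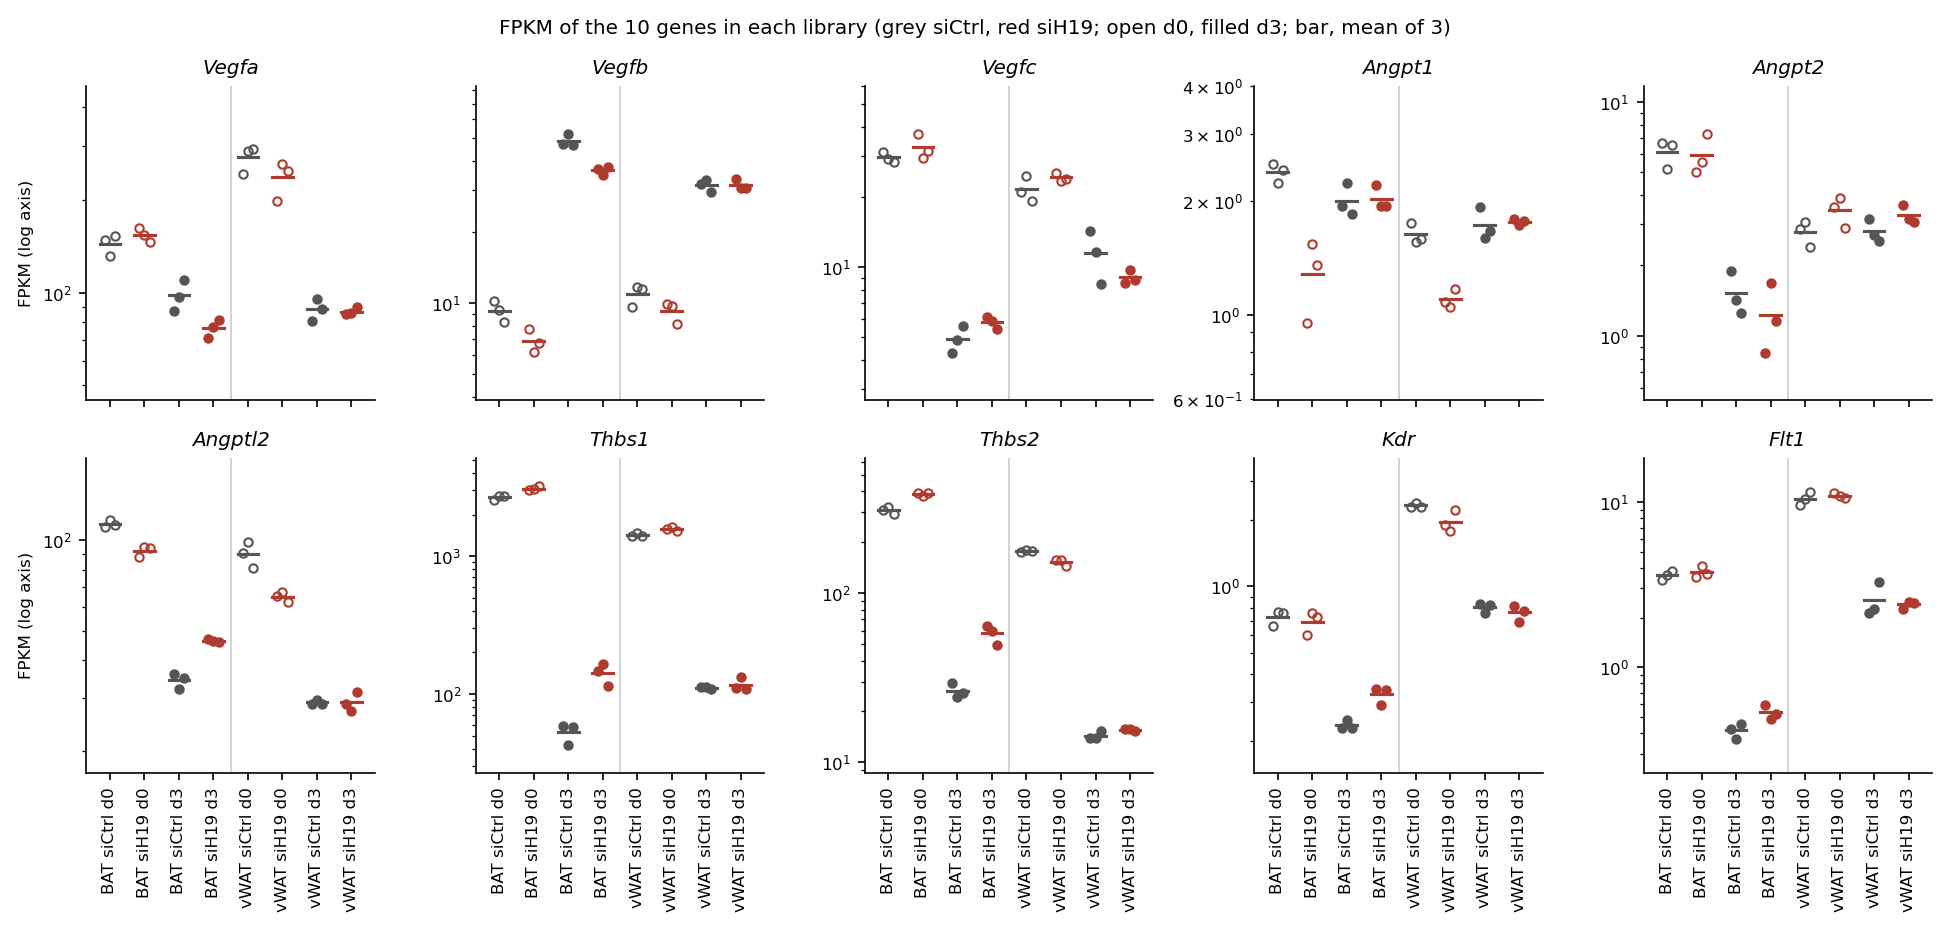
FPKM of each of the 10 genes on a log axis, 1 panel per gene, with 1 point per library and a bar at the mean of 3 (grey siCtrl, red siH19, open d0, filled d3). In BAT at d3 the red points of Thbs1, Thbs2 and Angptl2 lie above the grey ones and those of Vegfb below, while in vWAT at d3 red and grey points overlap for Thbs1, Angptl2 and Vegfb.

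These genes moved together with markers of other cells and states in the same libraries. The 9 pericyte and smooth muscle markers summed to 574 to 694 FPKM in siH19 BAT cells at d3 and to 267 to 352 in siCtrl BAT cells. The 7 adipocyte precursor markers summed to 578 to 632 against 364 to 399, and the 4 lymphatic endothelial markers, of which Podoplanin (Pdpn) alone reached 1 FPKM, to 16.5 to 17.3 against 7.02 to 9.27. The sums of the brown adipocyte markers, 318 to 380 against 552 to 619, and of the 8 macrophage and leukocyte markers, 83.6 to 95.4 against 133 to 165, were lower with siH19, as was that of the 9 adipocyte markers, 34900 to 37200 against 38400 to 40100, of which 8 had an unadjusted p under 0.05 and 1 was called, as lower, by limma. None of these ranges overlapped. The endothelial sums did overlap (36.5 to 42.8 against 38.8 to 45), as did those of the 6 mesothelial markers (3.41 to 4.17 against 1.25 to 3.43). No marker of the endothelial list was at 0 in all 3 libraries of a group. The 6 skeletal muscle lineage markers, summed to 20.1 to 23.8 against 14.7 to 18.3 and reached at most 0.107 in vWAT libraries. The part of these markers in the differences of the 10 genes was not tested, and in bulk RNA fewer cells of a type cannot be told from less RNA per cell.

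**Figure D2:**
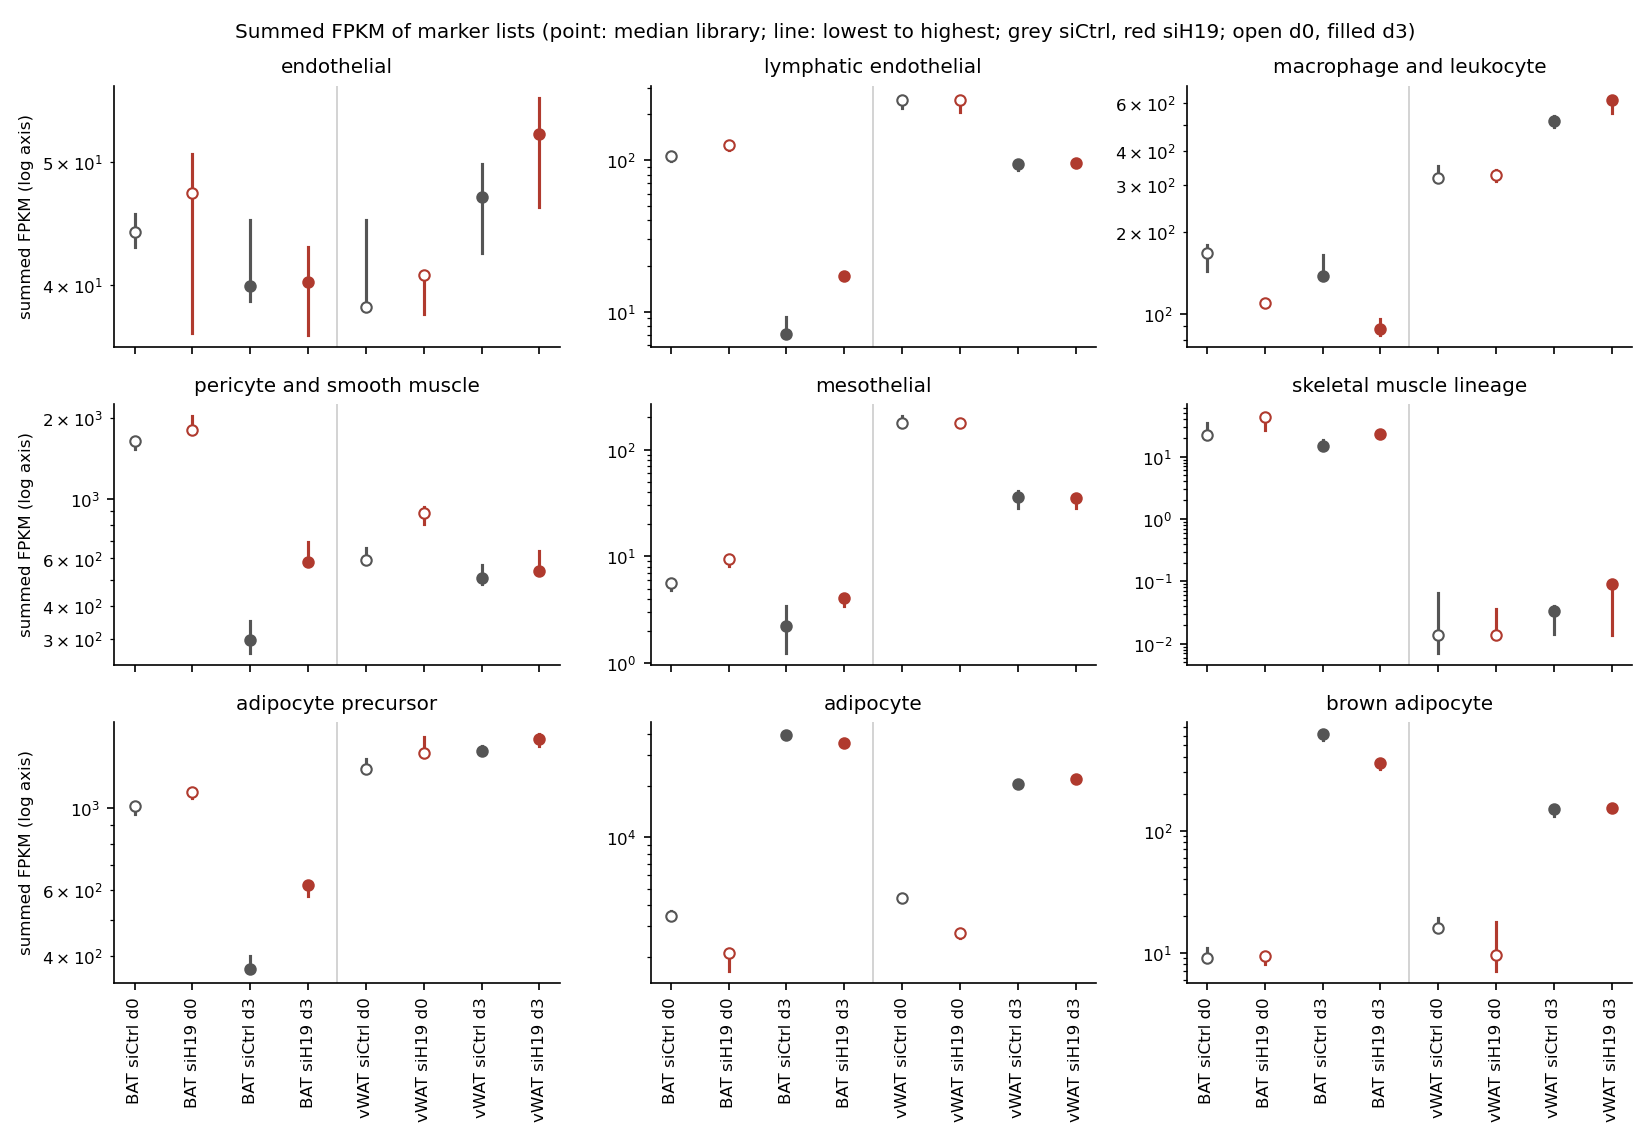
Summed FPKM of 9 marker lists on log axes, with the median library as a point and a line from the lowest to the highest of 3 libraries (grey siCtrl, red siH19, open d0, filled d3). In BAT at d3 the pericyte and smooth muscle sum was 574 to 694 with siH19 and 267 to 352 with siCtrl, and the brown adipocyte sum 318 to 380 and 552 to 619.

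In vWAT cells at d3 none of the 10 genes was called with siH19. Thbs1 was at 111, 132 and 109 FPKM with siH19 and at 112, 113 and 109 with siCtrl. Thbs2 was at 15.7, 15.8 and 15.3 against 14, 13.9 and 15.3, and the log2 differences were 0.07 for Thbs1 (95% interval -0.11 to 0.25) and 0.10 for Thbs2 (-0.03 to 0.24). Angptl2 and Vegfb had log2 differences of 0.00, each with an interval of -0.15 to 0.15. Of 9 genes tested 0 were called by limma and 0 had an unadjusted p under 0.05, and over all 13097 genes tested 0.00764% were called higher and 0.0229% lower, 4 genes in all, while 1315 genes had an unadjusted p under 0.05. The difference between the depots was tested as an interaction over 12 libraries. The siH19 effect was larger in BAT than in vWAT by 1.34 ± 0.20 SE on the log2 scale for Thbs1 (adjusted p = 0.0034 by limma), by 0.99 ± 0.14 for Thbs2 (adjusted p = 0.0027) and by 0.43 ± 0.083 for Angptl2 (adjusted p = 0.0097). For Vegfb it was more negative in BAT by 0.40 (interaction -0.40 ± 0.086 SE, adjusted p = 0.016). Of the 9 genes tested these 4 passed, against 10.5% of all 13762 genes in either direction. Of the genes passing over all, 66.6% were higher as deposited and 45.5% after trimmed-mean scaling, and the 4 named kept their side under that scaling.

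At d0, before differentiation began, the siH19 differences of the thrombospondins were small. In BAT 0 of 9 genes tested were called by limma and 5 had an unadjusted p under 0.05, against 0.617% called higher and 1.32% lower of 12651 genes, of which 2482 had an unadjusted p under 0.05. Thbs1, Thbs2 and Angptl2 nevertheless had adjusted p-values of 0.043, 0.026 and 0.033 by limma and missed the 1.3-fold minimum. Thbs1 stood at 3030, 3040 and 3200 FPKM with siH19 against 2560, 2720 and 2720, a log2 difference of 0.21. Thbs2 stood at 392, 375 and 391 against 309, 323 and 295, a log2 difference of 0.32. For both thrombospondins the siH19 libraries lay above all siCtrl libraries. Angptl2, which rose at d3, was lower at d0, at 87.8, 95.2 and 94.6 against 111, 117 and 112 (log2 -0.29). Angpt1 was lower as well, 0.954, 1.54 and 1.35 FPKM against 2.5, 2.23 and 2.4 (log2 -0.57 ± 0.12 SE, adjusted p = 0.065 by limma), and it and Vegfb were called lower when all 24 libraries shared 1 estimate of the spread (adjusted p = 0.0002 and 0.011). The adipocyte markers summed to 1650 to 2220 FPKM with siH19 and 3400 to 3690 with siCtrl in these libraries. The pericyte and smooth muscle markers summed to 1800 to 2040 and 1530 to 1690. Of the 8 tested on that list 0 were called by limma and 4 had a positive log2 difference (median 0.08), so the sum does not stand for the list. The part of both lists in these differences was not tested. Over all called genes of this comparison 31.8% were higher, or 41.5% after trimmed-mean scaling.

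In vWAT at d0 Angptl2 was at 65.2, 67.2 and 62.3 FPKM with siH19 and at 90.6, 99 and 80.7 with siCtrl. It was the gene called of the 10 tested, as lower (log2 -0.46 ± 0.079 SE, adjusted p = 0.045 by limma), against 0.329% called higher and 1.2% lower of 13063 genes. The call was lost when any 1 of the 6 libraries was left out, after trimmed-mean scaling (adjusted p = 0.056) and without the filter on low values (adjusted p = 0.11). Angpt1 was again lower with siH19, at 1.08, 1.05 and 1.17 FPKM against 1.75, 1.56 and 1.58, without passing the test (log2 -0.32, adjusted p = 0.14). Over all called genes of this comparison 21.5% were higher, or 32.1% after trimmed-mean scaling. In this comparison the pericyte and smooth muscle sum was 804 to 935 FPKM with siH19 against 584 to 659. Of the 7 tested on that list 1 was called, as higher, and 5 had a positive log2 difference (median 0.15). The adipocyte sum was 2570 to 2910 against 4410 to 4450, and the part of both lists in the comparison was not tested.

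Within BAT the siH19 effect differed between d3 and d0 for 4 of 9 genes, against 9.06% of 13575 genes. Thbs1 had 1.2 ± 0.19 SE more on the log2 scale at d3 than at d0 (adjusted p = 0.0044 by limma), Thbs2 0.77 ± 0.13 (adjusted p = 0.0060) and Angptl2, whose sign turned, 0.72 ± 0.071 (adjusted p = 0.00062). Angpt1 passed narrowly (0.59, adjusted p = 0.035) and lost the call under most alternatives (adjusted p 0.052 to 0.086 where lost). The Vegfb effect was nearly the same on both days, -0.40 and -0.38. Of the genes that passed over all, 86% were higher at d3, or 63.3% after trimmed-mean scaling, and Vegfa joined the called genes under that scaling (log2 -0.55, adjusted p = 0.032).

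**Figure D3:**
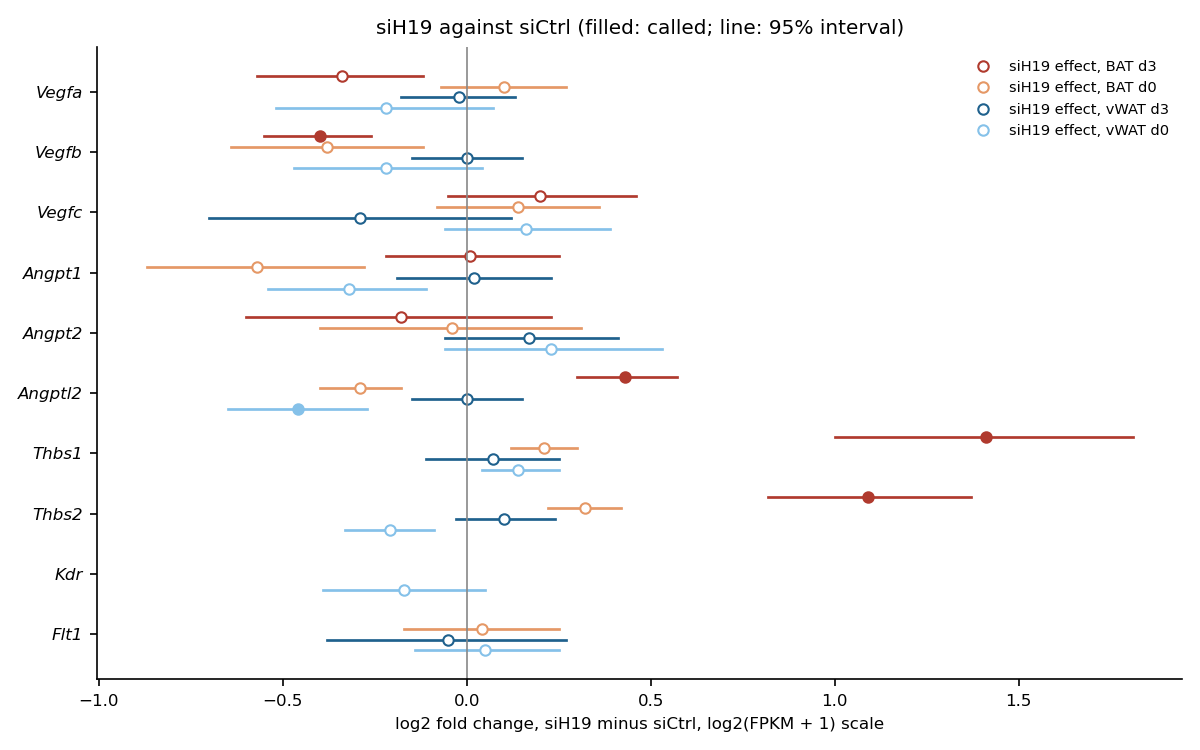
Log2 fold change of siH19 against siCtrl on the log2(FPKM + 1) scale for each gene in the 4 pairs of groups, with 95% intervals from limma and filled points for called genes. Thbs1 (1.41) and Thbs2 (1.09) in BAT at d3 stand far to the right of the other values, and genes under the filter have no point.

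Between d0 and d3 most of the set changed, and the thrombospondins most of all. The days also differ in medium, time in culture and time since transfection, and no undifferentiated cells were sampled at d3. The parts of these and of differentiation therefore cannot be told apart. In siCtrl BAT cells Thbs1 fell from 2560, 2720 and 2720 FPKM at d0 to 59.1, 43 and 57.4 at d3, a 50.2-fold difference in the means (log2 -5.64 ± 0.12 SE, adjusted p = 7.6e-08 by limma). Thbs2 fell 11.7-fold, from 309, 323 and 295 FPKM to 29.6, 24.2 and 25.6 (log2 -3.50). Even with siH19, the d3 libraries of both genes thus stayed far below every d0 library. Vegfc fell 6.02-fold, from 31.2, 29.1 and 28.4 FPKM to 4.28, 4.86 and 5.6, Angpt2 4.03-fold, from 6.66, 5.17 and 6.54 to 1.9, 1.42 and 1.25, and Angptl2 3.30-fold. Vegfa fell 1.47-fold (log2 -0.55, adjusted p = 0.0019). Flt1 fell from 3.39, 3.62 and 3.84 FPKM to 0.421, 0.368 and 0.456, which is 8.72-fold in the means. It passed the filter through its d0 libraries alone, and Kdr, at 0.662 to 0.763 FPKM at d0 and 0.229 to 0.247 at d3, was not tested. Vegfb was the gene that rose, 5.25-fold, from 10.2, 9.34 and 8.27 FPKM to 47.1, 51.9 and 46.9 (log2 2.28 ± 0.085 SE, adjusted p = 7.3e-07). Of 9 genes tested 7 were called lower and 1 higher, against 35.3% lower and 29.9% higher of 13001 genes, and Angpt1 was not called (log2 -0.17, 95% interval -0.38 to 0.04).

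In siCtrl vWAT cells the direction was the same for the genes called in both depots, but the sizes differed for some of them. Thbs1 fell from 1400, 1460 and 1400 FPKM to 112, 113 and 109 (12.7-fold, log2 -3.66 ± 0.032 SE), and Thbs2 from 175, 179 and 177 to 14, 13.9 and 15.3 (12.3-fold, log2 -3.53). Vegfa fell 3.11-fold, from 243, 289 and 293 FPKM to 80.8, 95.6 and 88.7. Vegfc fell 1.89-fold, from 21.1, 24.6 and 19.3 to 14.3, 11.6 and 8.47, Flt1 4.10-fold and Kdr 2.90-fold, from 2.3, 2.38 and 2.3 to 0.833, 0.759 and 0.82, so that Kdr too passed the filter through d0 alone. Vegfb rose 2.88-fold, from 9.59, 11.7 and 11.5 FPKM to 31.8, 33.1 and 29.6. Angpt2, at 2.86, 3.07 and 2.39 FPKM and then 3.15, 2.71 and 2.54, was not called (log2 0.01, 95% interval -0.25 to 0.27), nor was Angpt1. Of 10 genes tested 7 were called lower and 1 higher, against 23.9% lower and 26.3% higher of 13368.

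The depots differed in the size of this change for 6 of the 10 genes, against 53% of 14111 genes in either direction. The fall of Thbs1 was steeper in BAT by 1.98 on the log2 scale (interaction -1.98 ± 0.13 SE, adjusted p = 5.5e-07 by limma), that of Angpt2 by 1.51 (-1.51 ± 0.18) and that of Vegfc by 1.49 (-1.49 ± 0.22). The fall of Vegfa was steeper in vWAT (1.08 ± 0.15, adjusted p = 0.00011) and the rise of Vegfb larger in BAT (0.83 ± 0.13, adjusted p = 0.00025). Kdr also passed (0.40, adjusted p = 0.0044), but with a pseudocount of 0.1 its value was 0.12 (adjusted p = 0.66) and Flt1 passed in its place (log2 -0.84, adjusted p = 0.009), so for the 2 receptors the result rests on the scale. Thbs2 and Angptl2 had interactions of 0.03 (95% interval -0.18 to 0.24) and -0.10 (-0.31 to 0.12). The adipocyte precursor sums moved differently in the depots too. In siCtrl BAT cells they went from 962 to 1020 FPKM at d0 to 364 to 399 at d3, with 6 of 7 markers called lower and 0 higher. In siCtrl vWAT cells they went from 1260 to 1350 to 1410 to 1470, but 3 of 7 markers were called lower and 2 higher (median log2 difference -0.01). The part of these markers in the interactions was not tested.

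**Figure D4:**
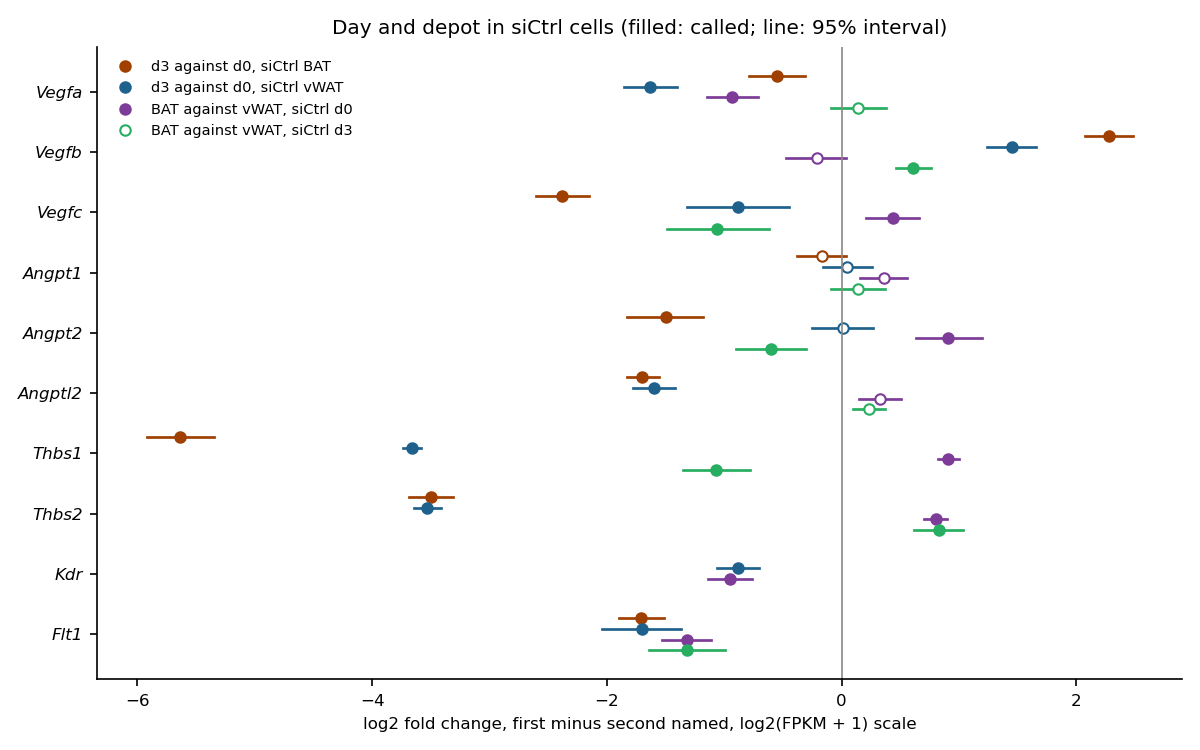
Log2 fold change on the log2(FPKM + 1) scale of d3 against d0 in siCtrl cells of each depot and of BAT against vWAT at each day, with 95% intervals from limma and filled points for called genes. Thbs1 lies at -5.64 in BAT and -3.66 in vWAT, and Vegfb is the gene to the right of 0 for day in both depots (2.28 and 1.45).

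Set side by side, the depots had different members in front. At d0 siCtrl BAT cells had more Thbs1 (1.88-fold, log2 0.91), Thbs2 (1.75-fold, log2 0.80), Angpt2 (2.21-fold, log2 0.91) and Vegfc (1.36-fold, log2 0.44) than siCtrl vWAT cells, and less Vegfa (1.92-fold, log2 -0.93), Flt1 (2.90-fold, log2 -1.32) and Kdr (3.20-fold, log2 -0.95). The libraries of the depots did not overlap for these 7, nor for Angpt1 and Angptl2, and the share of all genes without overlap was not computed. Flt1 was at 3.39, 3.62 and 3.84 FPKM in BAT and at 9.58, 10.5 and 11.5 in vWAT, and Kdr, under 1 FPKM in BAT, passed the filter through vWAT. Of the 10 genes 4 were called higher and 3 lower in BAT, against 10.2% higher and 21% lower of 13139 genes. The Vegfc call was lost without vWAT siCtrl replicate 3 (log2 0.36). Angpt1 (log2 0.36, ratio of mean FPKM 1.46) and Angptl2 (log2 0.33, ratio 1.26) were short of 1.3-fold on the log2(FPKM + 1) scale as deposited. Both were called higher after trimmed-mean scaling (log2 0.44 and 0.46).

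At d3 several of these differences had turned. Thbs1 was lower in siCtrl BAT than in siCtrl vWAT cells (2.09-fold, log2 -1.07, adjusted p = 0.00025 by limma), as were Angpt2 (1.84-fold, log2 -0.60) and Vegfc (2.33-fold, log2 -1.06). Thbs2 was still higher in BAT (1.83-fold, log2 0.83), Vegfb was now higher (1.54-fold, log2 0.61) and Flt1, which passed the filter through vWAT, lower (6.18-fold, log2 -1.32). Vegfa no longer passed (log2 0.14, 95% interval -0.09 to 0.38). Of 9 genes tested 2 were called higher and 4 lower, against 16.5% higher and 32.1% lower of 13120 genes. The median log2 difference of all genes between BAT and vWAT was -0.128 at d0 and -0.159 at d3, and -0.018 and -0.039 after trimmed-mean scaling, which also moved the share of higher calls from 32.8% to 47.9% and from 33.9% to 45.3%. No called gene of the set changed sign under it. Relative depth, read from the steps between low values, was 0.82 to 0.976 in BAT and 1.01 to 1.16 in vWAT libraries.

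Markers of other cells moved with depot too. In siCtrl vWAT and siCtrl BAT cells the mesothelial markers summed to 178 to 207 and 4.86 to 5.9 FPKM at d0 and to 28.7 to 41.4 and 1.25 to 3.43 at d3. The macrophage and leukocyte markers summed to 316 to 351 in vWAT and 144 to 180 in BAT at d0, with 7 of 8 called lower in BAT, and to 492 to 537 and 133 to 165 at d3, with 7 of 7 lower. The adipocyte precursor sums were 1260 to 1350 and 962 to 1020 at d0 and 1410 to 1470 and 364 to 399 at d3. None of these ranges overlapped between the depots. The endothelial list, which leaves out Flt1 and Kdr and to whose sums Egfl7 alone gave a mean of 17.1 to 33.4 FPKM in these siCtrl groups, had overlapping sums at d0 (38.1 to 45 in vWAT and 42.8 to 45.5 in BAT), with 1 of 8 markers called higher in BAT, 1 lower and a median log2 difference of 0.03. At d3 its sums were 42.4 to 49.8 and 38.8 to 45, with 5 of 8 markers called lower in BAT, 0 higher and a median of -0.59. The part of these cell types in the depot differences of the 10 genes was not tested.

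Over all groups the highest and lowest levels were as follows. FPKM is per length, so the genes can be compared, and by their median over 24 libraries the order was Thbs1 (783), Vegfa (120), Thbs2 (104), Angptl2 (54.8), Vegfb (20.6), Vegfc (16.8), Flt1 (3.34), Angpt2 (3.07), Angpt1 (1.76) and Kdr (0.758). These medians mix d0 and d3 libraries, and those of Thbs1 and Thbs2 lie between the days, at a level of no group. The order also differed within groups. In siCtrl BAT cells at d3 the means were 98.1 for Vegfa, 53.2 for Thbs1, 48.7 for Vegfb, 34.3 for Angptl2 and 26.5 for Thbs2. The highest group mean exceeded the lowest by 58-fold for Thbs1, 26.7-fold for Thbs2 and 26.3-fold for Flt1, and by 2.16-fold for Angpt1, which varied least. Thbs1 was highest in siH19 BAT cells at d0 (3090 FPKM), followed without overlap by siCtrl BAT (2670), siH19 vWAT (1570) and siCtrl vWAT (1420) at d0, and then by siH19 BAT (143), siH19 vWAT (117) and siCtrl vWAT (111) at d3, of which the neighbours siH19 BAT and siH19 vWAT overlapped, as did siH19 and siCtrl vWAT. It was lowest in siCtrl BAT cells at d3 (53.2). Vegfb had the opposite order at its ends, highest in siCtrl BAT cells at d3 (48.7 FPKM), then siH19 BAT at d3 (36.6), with the vWAT groups at d3 overlapping each other at 31.5. Vegfa was highest in vWAT at d0 (275 with siCtrl and 237 with siH19, which overlapped) and lowest in siH19 BAT cells at d3 (76.8).

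Across the 24 libraries, which share day and depot, the log2 levels of Vegfb and Thbs1 ran against each other (Pearson r = -0.986), those of Angptl2 and Thbs2 together (r = 0.976) and those of Kdr and Flt1 together (r = 0.951). Of 11462 genes compared, those most like each member were Dusp6 and Nr4a3 for Vegfa (r = 0.977 and 0.976), Mcat and Mdh1 for Vegfb (0.994 and 0.993), Mgat2 and Col1a1 for Vegfc (both 0.984), Csf1 and Vasn for Thbs1 (0.998 and 0.997), Itpripl2 and Pmepa1 for Thbs2 (0.995 and 0.993), and Sipa1l2 and Serpinb1a for Flt1 (0.990 and 0.987). For Angptl2 they were Ss18 and Mapk1ip1l (both 0.979), for Angpt2 Adarb1 and Podn (both 0.950) and for Angpt1 Tmem50b and Deptor (0.818 and 0.810). These are descriptions, in which the change between days weighs most.

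The other genes of the pathways showed where the set stood among its partners. With siH19 in BAT at d3, of 3 tested VEGF family genes and receptors outside the set 1 was called, Vegfd, a lymphatic growth factor, higher (53.7 to 71.8 FPKM, log2 0.41, adjusted p = 0.017 by limma). Of 5 tested angiopoietin and Tie genes Angpt4 was called higher (log2 0.55) and Angptl6 lower (log2 -0.43). Of 6 tested thrombospondins and their receptors 2 were called higher, most strongly Itgav, an integrin subunit (12.6 to 23.9 FPKM, log2 0.88 ± 0.087 SE, adjusted p = 0.0029). Of 12 tested secreted pro-angiogenic factors 4 were called higher and 0 lower, led by Ctgf, a matricellular growth factor partner (71.8 to 194 FPKM, log2 1.44 ± 0.15 SE, adjusted p = 0.0031), and of 10 tested anti-angiogenic factors 4 were called higher and 0 lower, led by Timp3, a metalloproteinase inhibitor (9.68 to 18.9 FPKM, log2 0.90). Of 15 tested hypoxia-inducible factors and targets 3 were called higher, led by Adm, the peptide adrenomedullin, which is also on the pro-angiogenic list (10.4 to 18.6 FPKM, log2 0.77). The median log2 differences of the 6 lists were 0.15, 0.08, 0.23, 0.31, 0.25 and -0.03 in the order given, beside 0.051 over all genes tested. Of all genes tested 6.39% were called higher and 2.18% lower. Genes of both kinds, those that further and those that restrain vessel growth, were among those that rose.

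**Figure D5:**
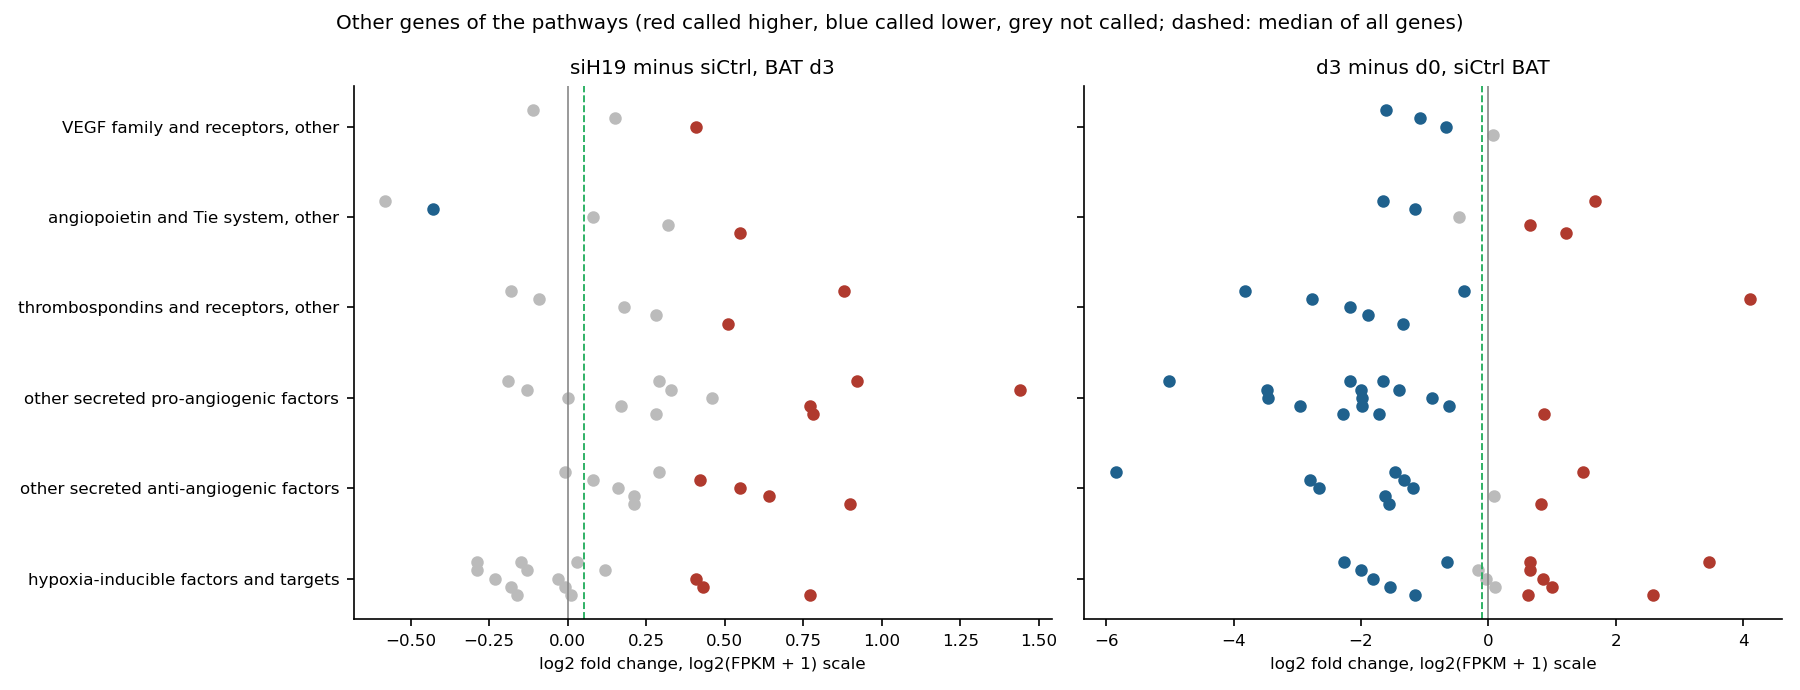
Log2 fold change on the log2(FPKM + 1) scale of each tested gene on the 6 pathway lists, for siH19 against siCtrl in BAT at d3 (left) and d3 against d0 in siCtrl BAT (right), with genes called higher in red, lower in blue and others in grey, and a dashed line at the median of all genes (0.051 and -0.099). Ctgf, at 1.44, is the point farthest right on the left panel. On the right panel 14 of the 15 pro-angiogenic factors are blue, beside 35.3% of all genes tested called lower.

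At d0 few of these partners were called with siH19. In BAT the called gene was Cxcl12, a chemokine, lower (339 to 178 FPKM, log2 -0.93 ± 0.068 SE, adjusted p = 0.0076 by limma). In vWAT Adm (29.1 to 45.9 FPKM, log2 0.64) and Ctgf (728 to 1090, log2 0.58) were higher, Apln, the peptide apelin, lower (79.3 to 48.2, log2 -0.71), and Cd36, the receptor of thrombospondin and a fatty acid carrier, lower (235 to 176, log2 -0.41). In vWAT at d3 the 6 lists had 0 called genes by limma, and in their order 1, 1, 0, 5, 3 and 3 genes had an unadjusted p under 0.05. Over all genes tested, 0.617% were called higher and 1.32% lower in BAT at d0. In vWAT these shares were 0.329% and 1.2% at d0 and 0.00764% and 0.0229% at d3.

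Between d0 and d3 in siCtrl BAT cells 14 of 15 pro-angiogenic factors fell and 1 rose, Egfl7 (log2 0.88). Ctgf fell most, from 2320 to 71.8 FPKM (log2 -5.01). Of 11 anti-angiogenic factors 8 fell, Timp3 most (614 to 9.68 FPKM, log2 -5.85), and 2 rose, Sema3a most (log2 1.48). Of 7 thrombospondins and receptors 6 fell, the integrin subunit Itgb3 most (19.3 to 0.447 FPKM, log2 -3.82), and Cd36 rose from 148 to 2570 FPKM (log2 4.11). Of 6 angiopoietin and Tie genes 3 rose, led by Angptl4, an inhibitor of lipoprotein lipase (81.2 to 260 FPKM, log2 1.67), and 2 fell, Angpt4 most (log2 -1.65). Of 4 VEGF family genes 3 fell, Vegfd most (165 to 53.7 FPKM, log2 -1.60). The hypoxia list was split, with 7 of 16 higher, the glycolysis regulator Pfkfb3 most (8.77 to 107 FPKM, log2 3.46), and 6 lower, the glucose carrier Slc2a1 most (68.3 to 13.5 FPKM, log2 -2.26). The list medians were -0.87, 0.10, -1.89, -1.99, -1.47 and 0.03 for VEGF, angiopoietin, thrombospondin, pro-angiogenic, anti-angiogenic and hypoxia genes, beside -0.099 over all genes. Of all genes tested 35.3% were called lower and 29.9% higher.

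In siCtrl vWAT cells the pathway genes moved in both directions. Vegfd rose from 157 to 381 FPKM (log2 1.28 ± 0.030 SE) where it had fallen in BAT, and Pgf fell (log2 -1.31), with 2 of 4 called in each direction. Of 15 pro-angiogenic factors 10 fell, Ctgf most (log2 -3.98), and 3 rose, Egfl7 most (log2 0.81). Of 12 anti-angiogenic factors 8 fell, Timp3 most (log2 -3.89), and 3 rose, Ism1 most (log2 1.26), and of 5 thrombospondins and receptors 3 fell, Itgb3 most (log2 -2.50), and Cd36 rose (log2 2.35). The angiopoietin list had 3 of 5 higher, led by Angpt4 (log2 1.01), and Angptl7 lower (30.5 to 1.52 FPKM, log2 -3.65). Of 16 hypoxia genes 4 rose, Bnip3 most (log2 1.97), and 5 fell, Slc2a1 most (log2 -2.29). The medians in the order above were -0.07, 0.57, -0.46, -0.94, -0.86 and -0.14, beside 0.011 over all genes. Of all genes tested 23.9% were called lower and 26.3% higher, so the counts of the hypoxia list were near those shares.

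Between the depots at d0, 5 of 7 genes on the thrombospondin list were called higher in siCtrl BAT than in siCtrl vWAT cells, Thbs4 most (18.4 against 0.127 FPKM, log2 4.10), and Cd36 lower (log2 -0.66). Of 16 pro-angiogenic factors 6 were higher, Ctgf most (log2 1.67), and 6 lower, the growth factor Fgf1 most (0.389 against 25.9 FPKM, log2 -4.28). Of 12 anti-angiogenic factors 4 were higher, Tnmd most (log2 3.04), and 3 lower, Sema3a most (log2 -2.89). Angptl1 was the angiopoietin-list gene called higher (log2 2.26), and Angptl7 was listed at 0 in the BAT libraries and at a mean of 30.5 FPKM in vWAT, with 3 of 7 on that list called lower. Placental growth factor, Pgf, was the called gene of 4 on the VEGF list (log2 -0.65). Of 17 hypoxia genes 8 were lower, Egln3 most (log2 -2.12), and 2 higher, Adm most (log2 0.60). The medians were -0.04, -0.07, 0.79, -0.03, -0.09 and -0.29 for the lists in the order above, beside -0.128 over all genes. Of all genes tested 10.2% were called higher in BAT and 21% lower.

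Comparing siCtrl BAT with siCtrl vWAT cells at d3, 10 of 14 pro-angiogenic factors were called lower in BAT, Cxcl12 most (log2 -2.97), and 2 higher, Ctgf most (log2 0.64). Of 11 anti-angiogenic factors 8 were lower, Sema3f most (log2 -2.06), and 0 higher. Of 6 thrombospondins and receptors 3 were higher, Comp most (log2 2.63), and 2 lower, Thbs3 most (log2 -1.49). Vegfd, lower by 2.80 on the log2 scale, and Nrp2, higher by 0.73, were the extremes of the VEGF list, and Angpt4 (log2 -2.36) and Angptl1 (log2 1.31) those of the angiopoietin list. Of 16 hypoxia genes 8 were lower, Adm most (log2 -1.95), and 5 higher, Pfkfb3 most (log2 1.55). The medians were -1.17, -0.65, 0.52, -1.22, -0.82 and -0.42 in the same order, beside -0.159 over all genes. Of all genes tested 16.5% were called higher in BAT and 32.1% lower.

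The table's own gene ontology terms gave a wider view, on lists that hold members of the set. Of 92 genes annotated to positive regulation of angiogenesis 55 were tested with siH19 in BAT at d3, of which 21 were called higher and 1 lower, with a median log2 difference of 0.26. Of 65 genes annotated to negative regulation 39 were tested, of which 11 were called higher and 0 lower, with a median of 0.11. Beside these stand the 6.39% called higher and 2.18% lower of all 12500 genes, with a median of 0.051, and the 74.6% of all calls that were higher (60.2% after trimmed-mean scaling). In vWAT at d3, 0 of 64 and 0 of 42 tested genes were called by limma, and 13 and 4 had an unadjusted p under 0.05. Between d0 and d3 in siCtrl BAT cells 49 of 66 tested positive regulators were lower and 10 higher, and 27 of 44 negative regulators lower and 10 higher, beside 35.3% lower and 29.9% higher of all 13001 genes.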

How the data were processed

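RNA-seq libraries were grouped by the labels into 8 groups of 3 (depot, siRNA, day). Per the labels, poly-A RNA was made into directional libraries and read in pairs, while the study's methods name single-end reads. The authors aligned reads to GRCm38 with TopHat2 2.0.10 and deposited expression values without a named unit, taken here as the FPKM values of Cufflinks (2.2.1 per the submitters' processing notes). Counts were not used here, so the depth in fragments is unknown, and a rise of a few abundant genes lowers all other FPKM values.

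Here log2(FPKM + 1) was compared with limma 3.58.1 (R 4.3.3, intensity trend) within the 6 libraries of each pair of groups, or 12 for an interaction, after dropping genes that reached 1 FPKM in fewer than 3 of them. Adjusted p-values are Benjamini-Hochberg over all genes tested. Genes were called at an adjusted p under 0.05 and at least 1.3-fold on the log2(FPKM + 1) scale, with no minimum fold for interactions. Other folds without a log are ratios of mean FPKM, and the log2 scale understates changes of low genes. Summed FPKM per library was 710794 to 841456, 12311 to 13125 genes reached 1 FPKM, and replicates had Pearson r of 0.988 to 0.991. The code was tested on simulated data. H19 was matched by gene ID.

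The members and gene lists were chosen with earlier results of these data known. Named were the members, H19, from each pathway list the called genes that rose and fell most, per member the 2 genes most like it, the genes overlapping a member, and markers of cell types. Alternatives were a pseudocount of 0.1, no filter, trimmed-mean scaling, no minimum fold, 1 fit over all 24 libraries, the replicate number as a block, and each library left out. Promoters come from RefSeq (GRCm38.p6), overlaps and H19 exons from GENCODE, and siRNA sequences from the study's oligonucleotide list.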

Additional observations from a re-analysis of the deposited data

Results flagged for a closer look

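For 14 gene and contrast pairs the test of a difference between depots or days itself passed, on the log2 scale by limma with Benjamini-Hochberg adjustment over all genes. Between depots at d3 the siH19 effect differed for Thbs1 (1.34), Thbs2 (0.99), Angptl2 (0.43) and Vegfb (-0.40), in BAT relative to vWAT. Between depots in siCtrl cells the change from d0 to d3 differed for Vegfa (1.08), Vegfb (0.83), Kdr (0.40), Vegfc (-1.49), Angpt2 (-1.51) and Thbs1 (-1.98). Between days in BAT the siH19 effect differed for Thbs1 (1.2), Thbs2 (0.77), Angptl2 (0.72) and Angpt1 (0.59), at d3 relative to d0. Over all genes tested 10.5%, 53% and 9.06% passed in these contrasts, in the order given. For depot by day the 6 of 10 genes that passed were thus near the share of all genes. The Kdr value rests on the pseudocount, and Angpt1 lost its call under most alternatives, as given above. Groups of 3 libraries are too small for a test of single outlying libraries, so none was made.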

How the results depend on the processing

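Of the values of single genes recomputed under an alternative, 1263 kept their direction and their side of the threshold, 26 lost a call, 20 gained one and 40 changed sign. The counts of called genes that moved were those of siH19 at d0: in BAT, 0 as reported, 3 without a minimum fold and 2 with 1 fit over all 24 libraries, and in vWAT, 1 as reported (Angptl2) and 0 without the filter, after trimmed-mean scaling, with the replicate block and in every fit without 1 library (0 to 0). The other counts stayed within 1.5 times of the reported count under every alternative run; for siH19 in BAT at d3 it was 3 to 5 without 1 library. The replicate numbers did not pair the libraries (correlations of deviations -0.14 to 0.09, 0 of 8 comparisons with all 3 pairs over 0.1), and the replicate block changed the count elsewhere only for day by siRNA in BAT, from 4 to 3. All sign changes were of values not called: Angpt1 at siH19 in BAT d3 (-0.02) and Angpt2 at d3 against d0 in vWAT (0.00) and Vegfc at day by siRNA (-0.03) after trimmed-mean scaling, and Vegfb at day by siRNA (0.02) with a pseudocount of 0.1. Without 1 library, the siH19 log2 difference ran in BAT at d3 from -0.03 to 0.06 for Angpt1, in BAT at d0 from -0.18 to 0.05 for Angpt2 and -0.01 to 0.08 for Flt1, in vWAT at d0 from 0.00 to 0.11 for Flt1, and in vWAT at d3 from -0.09 to 0.03 for Vegfa, -0.04 to 0.04 for Vegfb, -0.01 to 0.07 for Angpt1, -0.06 to 0.05 for Angptl2, -0.02 to 0.11 for Thbs1 and -0.14 to 0.09 for Flt1. The day difference in vWAT ran from 0.00 to 0.09 for Angpt1 and -0.06 to 0.07 for Angpt2. Interactions ran from -0.06 to 0.04 for Angpt1 (depot by siRNA), -0.05 to 0.09 for Thbs2 and -0.09 to 0.14 for Flt1 (depot by day), and -0.08 to 0.06 for Vegfb and -0.01 to 0.16 for Vegfc (day by siRNA). The cause of these changes was not tested. The FPKM table gives no counts, so genes near 1 FPKM, Angpt1, Angpt2, Kdr and Flt1, have an unknown counting error and depend most on the pseudocount.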
